A study of Mus musculus with 8 samples.

Results

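The transcripts described here are those that were barely seen in embryonic mouse forebrain: 10936 of the 63814 transcripts in the deposited tables, or 17.1%, with a length of 500 to under 8000 bases and a mean estimated count of at least 2 and under 20 over all 8 libraries. They were chosen by that plain, unscaled mean and by length, so their low level is the rule and not a result. The lowest member had a mean of 2 counts and the highest 19.99. The nearest transcripts of these lengths outside the limits had means of 1.99992 and 20. Members ran from 500 to 7980 bases, and the nearest transcripts with such means outside the limits had 499 and 8030 bases.

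The libraries came from forebrains of E15.5 embryos that were taken apart into single cells, with stranded SMARTer libraries made from total RNA depleted of ribosomal RNA. There were 4 libraries of genotype Het and 4 of genotype KO for Baf53a, and they differ by label in that genotype alone. The deleting line, the second allele of Het embryos, a Cre driver, strain and sex are not given in the sources used here. The labels do not say that each library is a separate embryo or litter, so p-values measure spread from library to library, part of which may be technical.

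Baf53a, encoded by Actl6a, is an actin-related subunit of the BAF (SWI/SNF) complexes, which use ATP to move nucleosomes and so open or close chromatin. Neural progenitors of the developing brain carry Baf53a, and neurons replace it with Baf53b as they leave the cell cycle. Transcripts with a handful of reads in a tissue can be minor isoforms of active genes, RNAs of rare cells, or transcripts of genes that are largely silent. The tables name transcripts by UCSC known-gene identifiers only. None (0) of these identifiers occurs in the 14 reference files searched, so members carry no gene name, no position and no sequence below, the level of Actl6a is not analysed here, and the tissue could not be checked against marker genes.

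Library totals ran from 10707086 to 13819586 estimated counts in Het and from 13659903 to 19561022 in KO, a ratio of mean totals of 1.25. The single most abundant transcript took 15.3% to 19.0% of counts in Het and 13.1% to 16.9% in KO, and the 10 most abundant together took 22.7% to 29.0% and 21.1% to 25.8%. Shares below are therefore given both of all counts and of the counts outside those 10, and detection was compared after each library had been thinned at random to 10706899 counts. Replicates of a genotype always differed by more than counting noise, with a chi-square per degree of freedom from 10.1 to 44.4 over transcripts with whole estimates.

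The members form a thin layer of RNA spread over many transcripts. Their median mean count was 7.40 and their median length 2227 bases (quartiles 1443 and 3222), against 2813 bases for all 37430 transcripts with a mean of at least 2. On the per-length TPM scale the median member stood at 0.289, while transcripts of the same lengths with means of 20 to under 200 counts stood at 2.03. Only 3612 members (33.0%) had a count in all 8 thinned libraries, and the other 7324 were missed in 1 to 7 of them.

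An estimated count is whole when kallisto, the quantifier, assigned a transcript's reads to it alone, and fractional when it divided reads among transcripts that share sequence. Estimates were whole, within 0.001, in all 8 libraries for 1767 members (16.2%), against 12.97% of all transcripts with a mean of at least 2. The other 9169 had fractional estimates in at least 1 library. That whole estimates mean unshared reads is an inference, since they also arise where a partner isoform receives none of the shared reads. Of the members with whole estimates 58.0% had a count in all 8 thinned libraries, and of the fractional ones 28.2%. The gap was present at every level. At a mean of 10 to under 20 counts, whole members were detected in 98.6% of cases per library in both genotypes, whereas fractional members were detected in 78.4% in Het and 82.3% in KO. The median biological coefficient of variation fitted by edgeR was 0.52 for whole and 1.14 for fractional members.

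**Figure D1:**
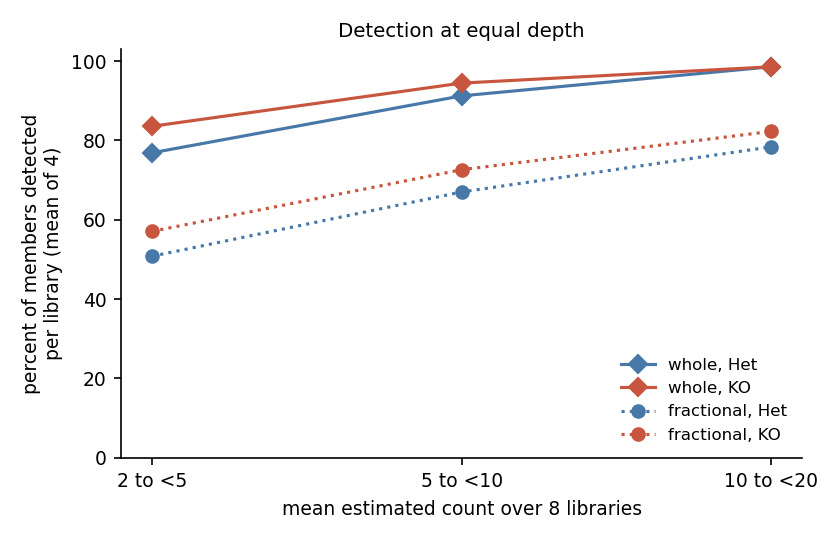
Percent of members with at least 1 count per thinned library (vertical axis, mean of 4 libraries) by the member's mean estimated count (horizontal axis), for members with whole (diamonds, solid) and fractional (circles, dotted) estimates in Het (blue) and KO (red). Whole members reached 98.6% in the highest class in both genotypes, and fractional members stayed at 78.4% in Het and 82.3% in KO.

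KO libraries gave more of their reads to these barely seen transcripts than Het libraries did. Outside the 10 most abundant transcripts the members held 0.814%, 0.844%, 0.822% and 0.822% of counts in Het 1 to 4. In KO 1 to 4 they held 0.850%, 0.870%, 0.919% and 0.880%. Every KO library lay above every Het library, with KO 3 the highest and Het 1 the lowest. The mean share was 0.825% ± 0.013 in Het and 0.880% ± 0.029 in KO (SD, n = 4), a ratio of 1.07 (exact two-sided permutation p = 0.0286, adjusted p = 0.0343 over 6 measures of the class). The smallest p that the 70 arrangements of 4 against 4 allow is 0.0286. The call was lost whichever library was left out, with adjusted exact permutation p from 0.0571 to 0.0686. The 4 further class differences called below were lost without Het 1 or without any 1 KO library, with adjusted p in the same range.

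Of all counts, the members' part was 0.619% ± 0.028 for Het and 0.677% ± 0.032 for KO (SD, n = 4), a ratio of 1.09 (exact permutation p = 0.0286, adjusted p = 0.0343). The difference in share was not detectable on the TPM scale, on which libraries of 1 genotype differed far more: members summed to 0.338% to 0.596% of TPM in Het and 0.426% to 0.670% in KO (n = 4, exact permutation p = 0.657, adjusted p = 0.789), with a ratio of 1.09. In bulk tissue, fewer cells of a type and less RNA per cell cannot be told apart, here and in every comparison below.

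The class was next set against the transcripts just above it, of the same lengths and with means of 20 to under 200 counts (15816 transcripts), within each library. The log2 ratio of member counts to the counts of that band was -3.78, -3.72, -3.79 and -3.76 in Het 1 to 4 and -3.70, -3.68, -3.64 and -3.67 in KO 1 to 4. The genotypes did not overlap, although Het 2 and KO 1 were close. The difference, 0.09 on the log2 scale, gave an exact permutation p of 0.0286 and an adjusted p of 0.0343. In TPM the difference was 0.08, again with no overlap (exact permutation p = 0.0286, adjusted p = 0.0571). The class thus rose relative to the next band by estimated counts, and the TPM version missed the threshold after adjustment.

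Set against the 115 transcripts of 8000 bases or more with the same range of means, no difference was detected. The log2 ratio averaged 6.44 ± 0.28 over Het and 6.35 ± 0.06 over KO libraries (SD, n = 4; exact permutation p = 0.657, adjusted p = 0.657), and the genotypes overlapped. The difference of -0.09 became 0.03 without Het 1, where the ratio stood at 6.79. The long transcripts are few, and their ratio varied more among Het libraries than the genotypes differed.

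**Figure D2:**
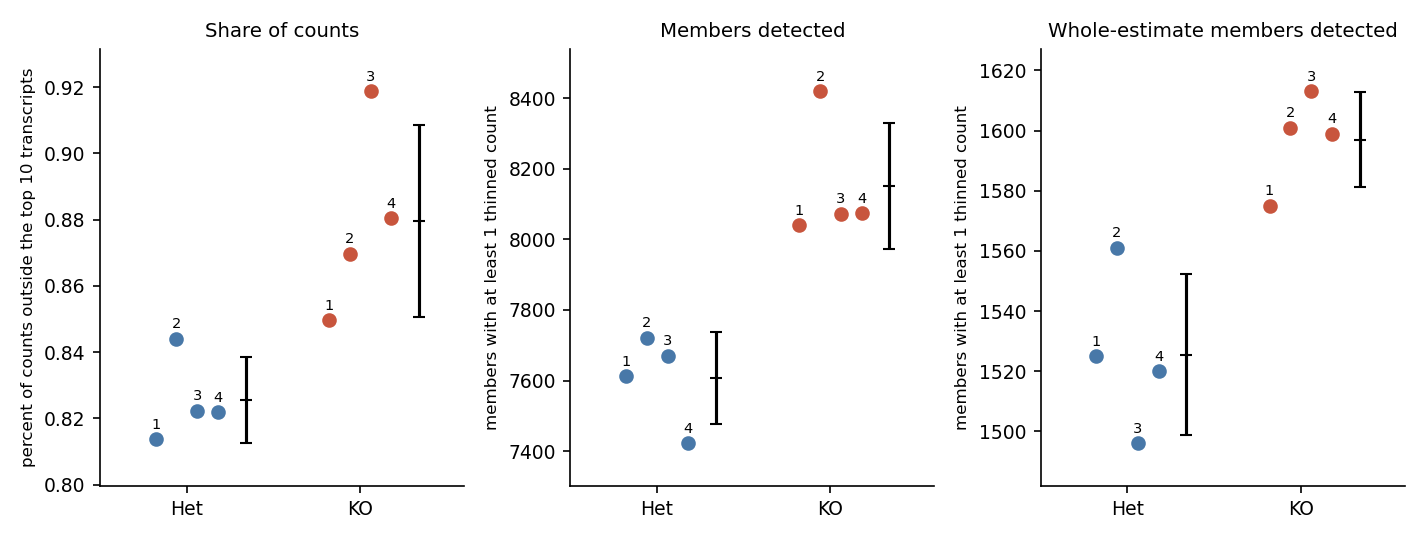
Each point is 1 library, numbered by replicate, with the mean and SD of 4 libraries beside it; the vertical axes show the members' percent of counts outside the 10 most abundant transcripts, the number of members with at least 1 count after thinning, and the same number for members with whole estimates. In all 3 panels the KO libraries lie above the Het libraries, with KO 2 apart from the others at 8419 detected members.

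More members were also seen at all in KO at equal depth. Het 1 to 4 had 7613, 7722, 7671 and 7422 members with at least 1 thinned count, and KO 1 to 4 had 8041, 8419, 8073 and 8075. The lowest KO library stood above the highest Het library, and KO 2, the most deeply sequenced library, stood apart from the other KO libraries. The means were 7607 ± 131 and 8152 ± 179 (SD, n = 4), a difference of 545 members (exact permutation p = 0.0286, adjusted p = 0.0343). Without KO 2 the difference was 456.

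Thinning removed counts after kallisto had assigned the reads, so the thinned numbers still carry an assignment made at each library's full depth. Members with whole estimates showed the same order. They numbered 1525, 1561, 1496 and 1520 detected in Het 1 to 4, and 1575, 1601, 1613 and 1599 in KO 1 to 4. The difference in means was 71.5 members (1525.5 ± 26.8 against 1597 ± 15.9, SD, n = 4, exact permutation p = 0.0286, adjusted p = 0.0343). KO 2 did not stand apart among them. Counting a member as detected only from 2 thinned counts up, the difference was 138 members (exact permutation p = 0.0286, adjusted p = 0.0343). In the band of 20 to under 200 counts, 14723 to 14973 transcripts were detected in Het and 15033 to 15275 in KO.

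The share of counts was then divided by read sharing, a comparison chosen after these values had been seen. Whole members held 0.104% ± 0.008 of the counts outside the 10 most abundant transcripts in Het and 0.122% ± 0.002 in KO (SD, n = 4), a ratio of 1.17 (exact permutation p = 0.0286, adjusted p = 0.0429 over 3 measures). Fractional members held 0.722% ± 0.009 and 0.758% ± 0.027, a ratio of 1.05 (n = 4, exact permutation p = 0.0286, adjusted p = 0.0429). The log2 ratio of whole to fractional counts was higher in KO by 0.16, but Het 2 lay above KO 3 and the difference missed the threshold (n = 4, exact permutation p = 0.0571, adjusted p = 0.0571).

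Divided by level and by length, the class showed ratios above 1 throughout, of which none passed the threshold after adjustment over the 7 sub-bands. The ratio of KO to Het in share of counts was 1.10 at means of 2 to under 5 (3679 members), 1.09 at 5 to under 10 (3318 members) and 1.05 at 10 to under 20 (3939 members), with adjusted exact permutation p of 0.1, 0.12 and 0.12 (n = 4). By length it was 1.03 for 500 to under 1000 bases, 1.05 for 1000 to under 2000, 1.08 for 2000 to under 4000 and 1.08 for 4000 to under 8000, with adjusted exact permutation p of 0.229, 0.12, 0.1 and 0.133 (n = 4). Differences between sub-bands were not tested. As a description, the same ratio was 1.18 for transcripts of these lengths with a mean under 2. It was 1.003 at 20 to under 200 counts and 0.998 at 200 to under 2000. At 2000 or more the value was 0.937, but it counts transcripts among the 10 most abundant, which the total leaves out. That value is therefore not a share like the others.

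**Figure D3:**
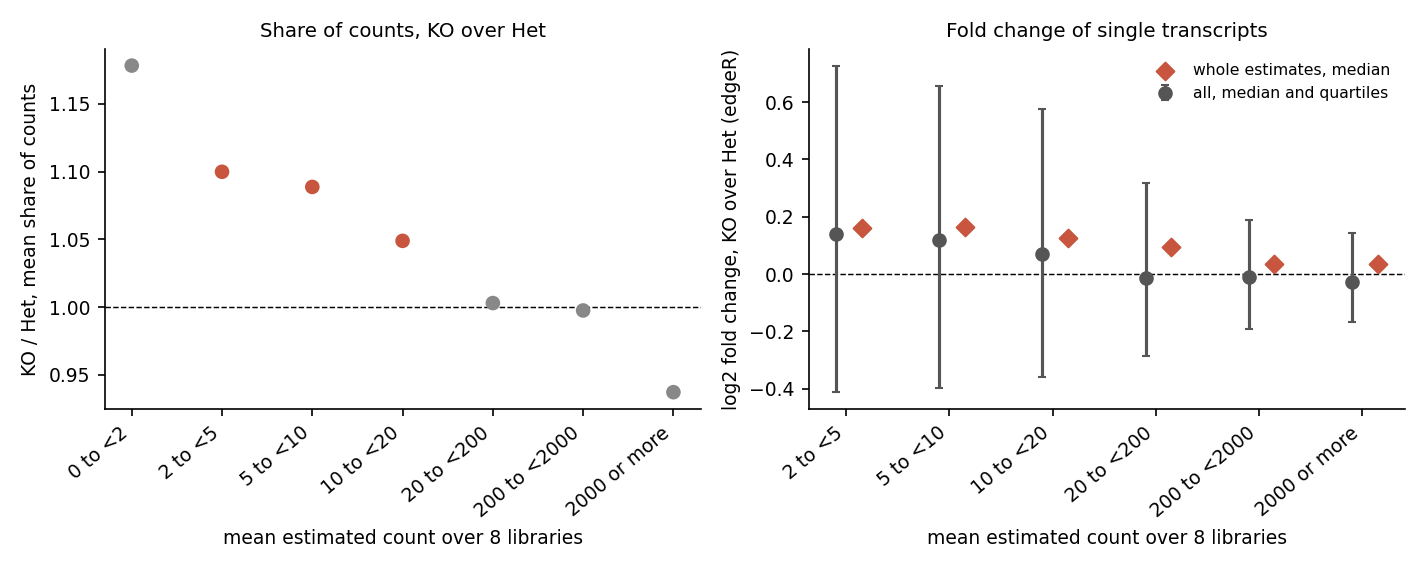
Left, mean share of counts in KO over that in Het (vertical axis) for transcripts of 500 to under 8000 bases by mean estimated count (horizontal axis), with the 3 classes that hold the members in red; right, median edgeR log2 fold change of single transcripts with quartiles (grey) and the median of transcripts with whole estimates (red diamonds). The ratio runs from 1.18 under 2 counts to 0.937 at 2000 or more, and the quartiles of the fold changes lie on both sides of 0 in every class.

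For single members the fold changes lay on both sides of 0. The median log2 fold change of the 10936 members was 0.10, against 0.01 for all 37430 transcripts fitted, and 56.0% of members against 51.0% of all had a value above 0. For members with whole estimates the median was 0.15 in this fit, and 0.094 when transcripts with whole estimates were fitted alone. Transcripts with whole estimates and means of 20 to under 200 counts had a median of 0.095 in the fit of all transcripts. Fold changes are edgeR's, drawn toward 0 by a prior count of 2, and with a prior count of 0.5 the members' median was 0.13. In 1018 members 1 genotype held no counts after estimates were rounded. Setting these at the bound that 3 counts over the group allow leaves the median at 0.10 by construction, since each stays on its side of it. By class of mean, the median fell from 0.14 at 2 to under 5 counts to 0.12 and 0.07 in the next classes, and was -0.01 at 20 to under 200.

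Few members passed a test one by one. The edgeR quasi-likelihood fit took all 37430 transcripts with a mean of at least 2. That limit does not use the genotype labels and keeps every member. The mean is unscaled, however, so the KO libraries, deeper on average, weigh more in it. In this fit 9 members were higher and 3 lower in KO at a Benjamini-Hochberg adjusted p under 0.05. That is 0.0823% and 0.0274% of members, where 0.826% of all transcripts fitted were higher and 0.489% lower. At an unadjusted p under 0.05, 446 members were higher and 257 lower, or 4.08% and 2.35%, against 8.23% and 7.34% of all. Groups of CPM that did not overlap were found with KO above for 517 members (4.73%) and with Het above for 168 (1.54%), against 7.78% and 4.2% of all transcripts fitted. The members' shares lay below those of all transcripts fitted in both directions, a difference that was not tested. Scaled by library totals alone, 8 members were higher and 3 lower, while the calls among all transcripts fitted went from 309 higher and 183 lower to 320 and 109. With edgeR's own default filter, which kept 3473 members, 18 (0.518%) were higher and 6 (0.173%) lower, against 1.65% and 0.984% of the transcripts in that fit. DESeq2 tested 10445 of the members but gave 2309 of them no adjusted p, so these could not be called. It called 213 members higher and 97 lower, or 2.04% and 0.929% of those tested, against 4.56% and 3.67% of all transcripts tested.

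The members with whole estimates were then tested apart from the fractional ones. When the 4853 transcripts with whole estimates were fitted alone, a comparison set down as an alternative, 75 of the 1767 whole members were higher and 19 lower in KO, at an edgeR adjusted p under 0.05. These are 4.24% and 1.08% of the whole members, and 7.71% and 6.76% of all transcripts in that fit were called higher and lower. The median change was 1.51 for the members that rose and -1.33 for those that fell, on the log2 scale, and 71 and 14 of them changed by more than 2-fold. These members were picked by adjusted p in the same fit, so their sizes are partly set by what could pass. The smallest called changes were 0.91 and -0.74, and the median of all 1767 whole members was 0.094. The balance of calls moved with the scaling: by library totals alone 104 members were higher and 14 lower, and the calls among all transcripts in that fit went from 374 higher and 328 lower to 582 and 165, with the median of all of them at 0.12 in place of 0.01 on the log2 scale. With the replicate number as a block, 79 members were higher and 27 lower. DESeq2 on the same 4853 transcripts called 49 members (2.77%) higher and 9 (0.509%) lower, against 6.9% and 6.92% of all in that fit. It gave 642 of the 1767 members no adjusted p, so these could not be called. With a library left out, the edgeR counts ran from 45 higher without Het 3 to 80 without Het 2, and from 12 lower without Het 1, Het 3 or Het 4 to 19 without KO 3. The 19 called lower became 12 without those Het libraries, and the 75 called higher became 49 without Het 1 and 45 without Het 3.

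Among the members called in the fit of all transcripts, 2 had whole estimates, uc008yfu.1 and uc057knp.1, and both were higher in KO. The first, of 666 bases, held 4, 6, 4 and 4 counts in Het 1 to 4 and 29, 39, 24 and 35 in KO 1 to 4. Every KO library held at least 4 times the highest Het value. Its CPM rose from 0.353 ± 0.078 to 1.98 ± 0.17 (SD, n = 4). The edgeR fold change, drawn toward 0 by the prior count of 2, was 2.08 on the log2 scale (SE 0.28; adjusted p = 0.0275), and it was 2.34 with a prior count of 0.5 and 2.46 with DESeq2. This call was lost when Het 1, 3 or 4 or any KO library was left out, with edgeR adjusted p from 0.0518 to 0.0968. The second, of 1818 bases, went from 2, 1, 2 and 1 counts in the Het libraries to 13, 19, 14 and 12 in the KO libraries. Again the genotypes did not overlap, and CPM rose from 0.115 ± 0.036 to 0.907 ± 0.122 (SD, n = 4). Here the prior count weighs more: the edgeR fold change was 2.01 on the log2 scale (SE 0.34; adjusted p = 0.0416), against 2.61 with a prior count of 0.5 and 2.92 with DESeq2. That call was lost whichever library was left out (edgeR adjusted p from 0.076 to 0.127), after thinning (0.0938) and without the filter on low means (0.0591).

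The 3 members called lower all had fractional estimates, so their values depend on how reads were divided. One was uc011yad.1, of 2711 bases, with 23.7, 21.6, 21.8 and 21.3 estimated counts in Het and 0 in every KO library. Het libraries were close to one another. By counting error alone, the transcript was at least 36.8-fold lower in KO, taking 3 counts over the KO group as the floor. That floor does not cover how reads were divided. The edgeR fold change, with the prior count of 2, was -3.78 on the log2 scale (adjusted p = 0.0245). Another, uc008ulq.1, of 3210 bases, held 25.02, 16.3, 39.7 and 8.75 counts in Het and 0 in every KO library. It was at least 37.3-fold lower by the same floor, with the same limit (edgeR log2 fold change -3.74, adjusted p = 0.0414). Both transcripts reached the mean of 2 counts through their Het libraries alone. The call of uc011yad.1 was lost without any 1 library except KO 3 (edgeR adjusted p from 0.0554 to 0.0875), and that of uc008ulq.1 without any 1 library (from 0.0652 to 0.114) and after thinning (0.0505).

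Further examples come from the fit of whole estimates and are given by length. A transcript of 4372 bases held 0 counts in all Het libraries and 6, 24, 14 and 22 in KO 1 to 4, at least 17.6-fold higher in KO against 3 counts over the Het group (edgeR adjusted p = 9.02e-04 in that fit, 0.0576 among all transcripts). A transcript of 5448 bases went from 3, 4, 3 and 0 counts in the Het libraries to 42, 32, 37 and 38 in the KO libraries, an edgeR fold change of 2.83 on the log2 scale (SE 0.33; adjusted p = 1.17e-04 by edgeR, and 0.0661 among all transcripts). Both were near silent in Het and present in every KO library. In the other direction, a transcript of 2771 bases held 13, 20, 18 and 0 counts in Het and 0 in every KO library, at least 21.2-fold lower (edgeR adjusted p = 0.0222, and 0.181 among all transcripts). Het 4 shared the 0 of the KO libraries there.

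**Figure D4:**
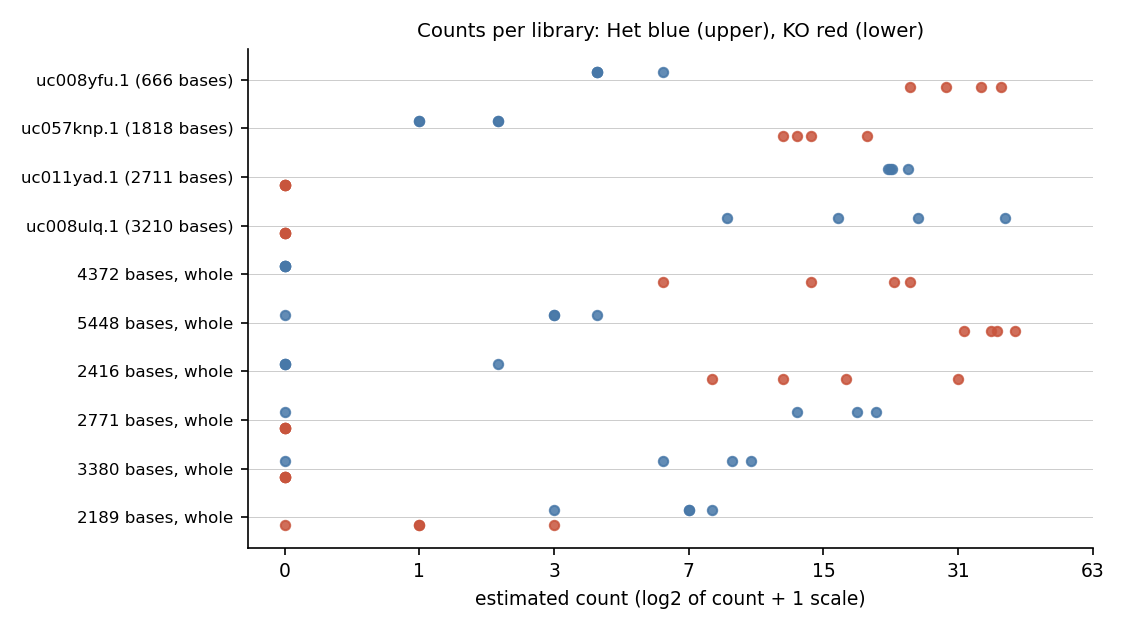
Estimated counts per library (horizontal axis, log2 of count + 1) for the 4 members named by the rule and the 3 largest rises and 3 largest falls called among members in the fit of whole estimates, by edgeR fold change, Het in blue above and KO in red below each line. The 2 named rises show 1 to 6 counts in Het and 12 to 39 in KO; the 2 named falls lie at 0 in all KO libraries.

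Some members were detected in 1 genotype only, in larger numbers in KO. At equal depth, 655 members (5.99%) had at least 1 count in 1 or more KO libraries and none in any Het library, and 383 (3.502%) had the reverse. Over all transcripts with a mean of at least 2, members included, the numbers were 723 and 410, or 1.93% and 1.1%. In the band of 20 to under 200 counts, 45 transcripts were KO-only and 12 Het-only (0.285% and 0.0759%). Larger numbers in KO were thus not particular to the members. The 655 and 383 members were chosen by their genotype pattern, so the counts are a description with no test. By the mean of counts scaled to equal totals, which gives the deeper KO libraries no extra weight in choosing the class, the numbers were 613 and 414.

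Most such members were seen in only 1 or 2 libraries. KO-only members had counts in 1, 2, 3 and 4 KO libraries in 243, 265, 117 and 30 cases, and Het-only members in 175, 153, 43 and 12 cases. In 3 or 4 libraries there were 147 KO-only members and 55 Het-only members (1.34% and 0.503% of members, against 0.494% and 0.158% of all transcripts with a mean of at least 2). KO 1 to 4 contributed 306, 352, 289 and 297 of the KO-only members and Het 1 to 4 159, 172, 159 and 168 of the Het-only members. With 1 library of each genotype left out together, in all 16 combinations, KO-only members numbered 861 to 930 and Het-only members 524 to 616.

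The members seen in 1 genotype only were mostly long and fractional. Their median length was 3146 bases in KO and 3050 in Het, against 2227 for all members. Whole estimates were found in 33 of the 655 (5.04%) and 16 of the 383 (4.18%), against 16.2% of members. By length, 1.58% of members of 500 to under 1000 bases were KO-only and 1.08% Het-only, and of those of 4000 to under 8000 bases 13.2% and 7.55%. Of the KO-only members 391 were at exactly 0 in all Het libraries before thinning, and of the Het-only members 170 were at 0 in all KO libraries.

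**Figure D5:**
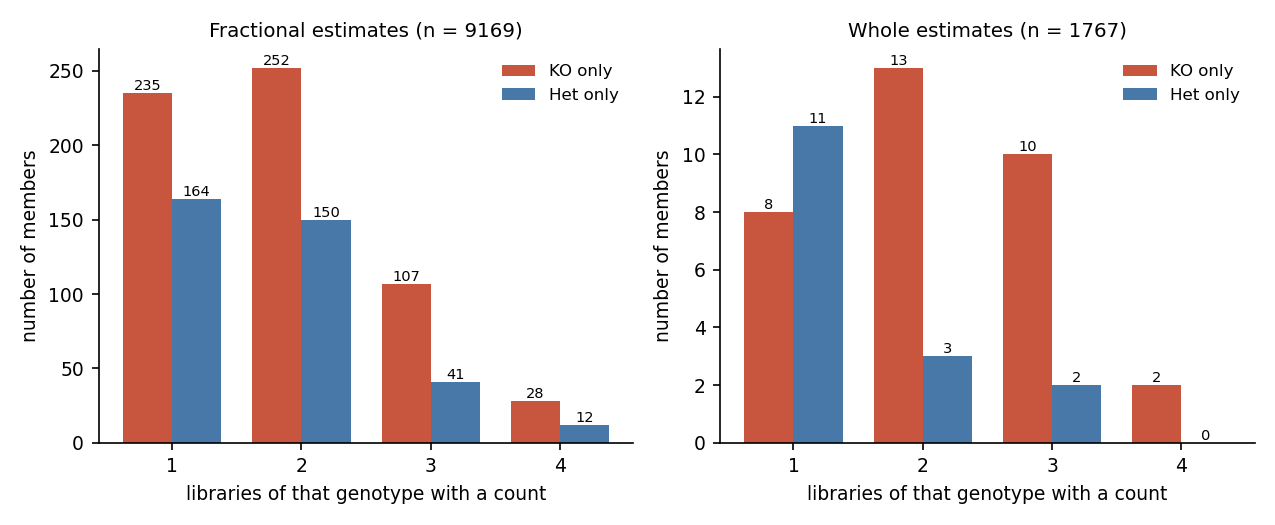
Number of members (vertical axis) with at least 1 thinned count in 1 to 4 libraries of a genotype (horizontal axis) and none in the other, for members with fractional (left) and whole (right) estimates, KO in red and Het in blue. KO-only members outnumber Het-only members in each fractional class, while among whole members the totals are 33 and 16.

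The strictest pattern, a count in all 4 libraries of 1 genotype and in none of the other, was met by 30 members in KO (0.274%) and 12 in Het (0.110%), against 0.118% and 0.0374% of all transcripts with a mean of at least 2. Of the 30, 2 had whole estimates and 5 were called by edgeR, and of the 12 none (0) had whole estimates and 3 were called. The KO member with the highest mean, of 3053 bases, held 26.5, 36.4, 52.0 and 43.4 estimated counts in KO 1 to 4 and was under 0.001 in every Het library. A member of 2018 bases was less even, with 57.0, 38.02, 51.4 and 3.04 counts in KO 1 to 4. Among those present in Het alone, 2 members of 3119 bases had the same 40.4, 33.8, 15.3 and 0.542 estimated counts in Het 1 to 4. Their Het 4 value was rounded up to 1 before thinning and counted as detected only for that reason.

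Some members are not independent of one another. There were 50 members in 20 groups with the same length and the same estimates in all libraries. Counting each group once left 382 Het-only members and the same 655 KO-only members. Of the 12 members seen in all 4 Het libraries and no KO library it left 11.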

How the data were processed

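RNA was measured in 8 libraries, 4 labelled Het and 4 labelled KO. The authors trimmed reads with cutadapt 1.16 and quantified them with kallisto against build mm10, per the submitters' processing notes; the kallisto version and the annotation are not given in the sources used here. The deposited tables give estimated counts per transcript, unscaled, and TPM values, which the authors' quantifier divides by effective length and scales to an equal total per library. The members, lists and tests were chosen with earlier results of these data known, including that more low transcripts were seen in KO.

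Members were taken by length and plain mean. Estimated counts were rounded for thinning (without replacement, to 10706899 counts, 1 seeded draw) and for edgeR 4.0.16 in R 4.3.3 (TMM factors, robust dispersions, quasi-likelihood test, prior count 2), fitted on all 37430 transcripts with a mean of at least 2. Adjustment was by Benjamini-Hochberg, called under 0.05. Standard errors are the log2 fold change over the square root of F. Exact two-sided permutation tests over libraries served for the class measures, adjusted over 6 measures or 7 sub-bands. CPM is the estimated counts scaled to library totals. Named members are the 2 largest rises and the 2 largest falls among members called with groups that did not overlap, whole estimates first. Because the identifiers carry no gene names, marker lists and BAF subunits are not analysed here. DESeq2 1.42.0, other scalings and filters, TPM, other draws, the replicate block and each library left out served as alternatives. The steps were tested on simulated data. Counting error only is covered by the floor of 3 counts.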

Additional observations from a re-analysis of the deposited data

Results flagged for a closer look

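A library far from its group was looked for in 42 groups of 4 and found in 4, where chance gives about 1 in 20. Het 1 held the members at 0.578% of all counts, while the other Het libraries lay from 0.630% to 0.635%; its 10 most abundant transcripts took 29.0% of counts, the highest of the 8 libraries, and the part this plays was not tested. KO 2 had 8419 members detected at equal depth, against 8041 to 8075 in the other KO libraries; its total, 19561022 estimated counts, was the highest of all, and the part this plays was not tested. In the sub-band of means of 5 to under 10 counts, Het 2 held 0.227% of the counts outside the 10 most abundant transcripts, against 0.204% to 0.207% in the other Het libraries. The log2 ratio of whole to fractional member counts was -2.69 in KO 3, against -2.62 in each of the other KO libraries.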

How the results depend on the processing

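The alternatives with TPM, with 1 library of each genotype left out, for the sub-bands and for the fit of whole estimates were chosen after seeing the data. The 5 class differences that passed the threshold kept their direction in every alternative run. With the replicate number as a block, they had the smallest exact p that 4 pairs allow, 0.125 (adjusted 0.15), with unchanged values of 1.09 for the share of all counts, 1.07 outside the 10 most abundant transcripts, 545 and 71.5 for members and whole members detected, and 0.0869 for the log2 ratio to the next band; the block called 0 members with edgeR in the fit of all transcripts (384 at an unadjusted p under 0.05; DESeq2 without a block 213 higher and 97 lower), and 79 higher and 27 lower in the fit of whole estimates. Same-numbered libraries correlated from -0.05 to 0.09, and 3 of 8 correlated best with their own number, so they were treated as unpaired. In TPM the shares had ratios of 1.09 and 1.07 and the log2 ratio to the next band 0.0830, past no threshold after adjustment; the cause was not tested. With single libraries left out, which lowers the number of arrangements to 35, the values ran from 1.07 to 1.11, 1.05 to 1.08, 456 to 583.3, 61.7 to 83.3 and 0.0768 to 0.102; the share outside the 10 most abundant transcripts lost its call in all 8 cases and the other 4 without Het 1 or any 1 KO library (adjusted p from 0.0571 to 0.0686). Groups that do not overlap cannot come to overlap when a library is left out, so these losses reflect the few arrangements and the adjustment. The ratio to long transcripts ran from -0.177 to 0.0290, positive only without Het 1. Counting from 2 thinned counts gave 617.75 and 138 for members and whole members detected. Scaled means gave 1.12, 1.09, 516.75, 63.5 and 0.11. The 9 members called higher and 3 lower became 18 and 6 with edgeR's default filter, which kept 3473 members, 5 higher without a filter, 3 higher after thinning, 75 and 19 among whole estimates fitted alone, and 213 and 97 with DESeq2; leaving out libraries gave 0 to 4 higher and 0 to 2 lower (554 to 723 at an unadjusted p under 0.05), with fewer samples in each fit. In the fit of whole estimates, 75 and 19 became 49 and 9 with DESeq2 and 104 and 14 with library totals alone, and ran from 45 to 80 and 12 to 19 with libraries left out. KO-only members ran from 586 to 1004 and Het-only members from 334 to 681 with libraries left out, which by construction lowers one and raises the other; with 1 of each left out KO-only members were the more numerous in 16 of 16 combinations. The 4 named calls were lost under the block. Alternatives that need gene names were not run. The mean of 2 to under 20 counts limits the precision of each member.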
